A study of Mus musculus with 11 samples.

Results

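Mouse genes that are used to mark mammary stem and progenitor cells were followed through the MamBo carcinoma lines. They are Cd44, Cd24a, Ly6a, Kit, Prom1, Procr, Thy1, Sox9, Aldh1a1 and Aldh1a3, chosen by symbol, and each had 1 row in the deposited count table, so that 10 of its 21846 genes are described here. All cells stemmed from tumors of FVBhuHER2 mice, which carry human HER2. The HER2-positive libraries were 3 of MamBo89HER2stable bulk cells (untreated, 60 days in trastuzumab, and 30 days in trastuzumab followed by 30 days without it), 1 of the untreated MamBo89HER2stable culture AG3, and 1 of untreated MamBo43HER2labile cells. The HER2-negative libraries were 4 of MamBo38HER2loss cells (2 untreated, 1 under each trastuzumab schedule) and 2 of MamBo43HER2labile cells, 1 from each trastuzumab schedule, which had by then lost HER2 and, per the study's methods, had been seeded at high density. In the study's cytometry, a small share of HER2-positive cells always stayed detectable in MamBo43HER2labile cells kept in trastuzumab. Trastuzumab, an antibody to HER2, was used at 30 µg/ml. The lines are called MamBo89, MamBo43 and MamBo38 below, and the schedules 60 days and 30 + 30 days.

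MamBo89 came from tumor A. MamBo43 came from tumor B, and MamBo38 from a tumor that MamBo43 cells formed in mice. AG3 was taken as the HER2-positive clone in the study's sample list and was kept apart, since a clone stands for 1 cell of its line. HER2 status within tumor B rested on 1 HER2-positive library. The labels do not say that libraries of a group came from separate cultures, and the study's methods speak of replicates of each sample where the labels list 1 library for most, so p-values measure the spread between the libraries listed. Total counts ranged from 17040454 to 27127662 (median 20592201), and 3 counts in a library, taken as the detection floor, equalled 0.114 to 0.179 CPM (read counts relative to the TMM-adjusted library total). No pair of libraries within a group agreed within sampling noise. A code in the names of 3 of the 4 MamBo38 libraries is found in no other library. Epithelial markers (Epcam, Cdh1, keratins, claudins, 8 genes) summed to 3091 to 3927 CPM in MamBo89, 2534 CPM in AG3, 3615 CPM in untreated MamBo43, 1843 CPM in MamBo43 after 30 + 30 days, 301 CPM in MamBo43 after 60 days and 1.39 to 2.73 CPM in MamBo38. The defining epithelial markers of the labelled carcinoma were thus nearly absent from MamBo38, with at most 5 counts of Epcam or Krt8 in any of its libraries. Fibroblast and pericyte markers (7 genes) moved the other way, from 49.99 to 97.0 CPM in MamBo89, 36.2 CPM in AG3 and 236 CPM in untreated MamBo43 to 2280 and 2507 CPM in treated MamBo43 and 1404 to 1651 CPM in MamBo38. Of the 8 leukocyte markers, Cd68 alone had over 8 counts in any library (up to 894), and Ptprc had at most 1 count in a library. Endothelial and mast cell markers summed to at most 0.89 CPM and 0.153 CPM.

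The mammary epithelium has a luminal layer, whose progenitors carry the receptor tyrosine kinase Kit and aldehyde dehydrogenase activity, and a basal layer that holds cells able to regenerate the gland on transplantation. Stem-enriched fractions are sorted on surface proteins, and in breast carcinoma a CD44-high, CD24-low surface phenotype is the classical stem-like profile. No single one of these proteins defines a stem cell, and several of them also mark mesenchymal or endothelial cells.

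The markers did not move as 1 block. Kit, Prom1 and Cd24a were high in every HER2-positive library and lowest in MamBo38. Procr showed the opposite order. Ly6a, Thy1 and Cd44 varied between lines in ways that HER2 status did not capture, and of these only Ly6a set AG3 apart from MamBo89 bulk. Sox9 fell moderately, and both aldehyde dehydrogenases were near the floor in most libraries.

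**Figure D1:**
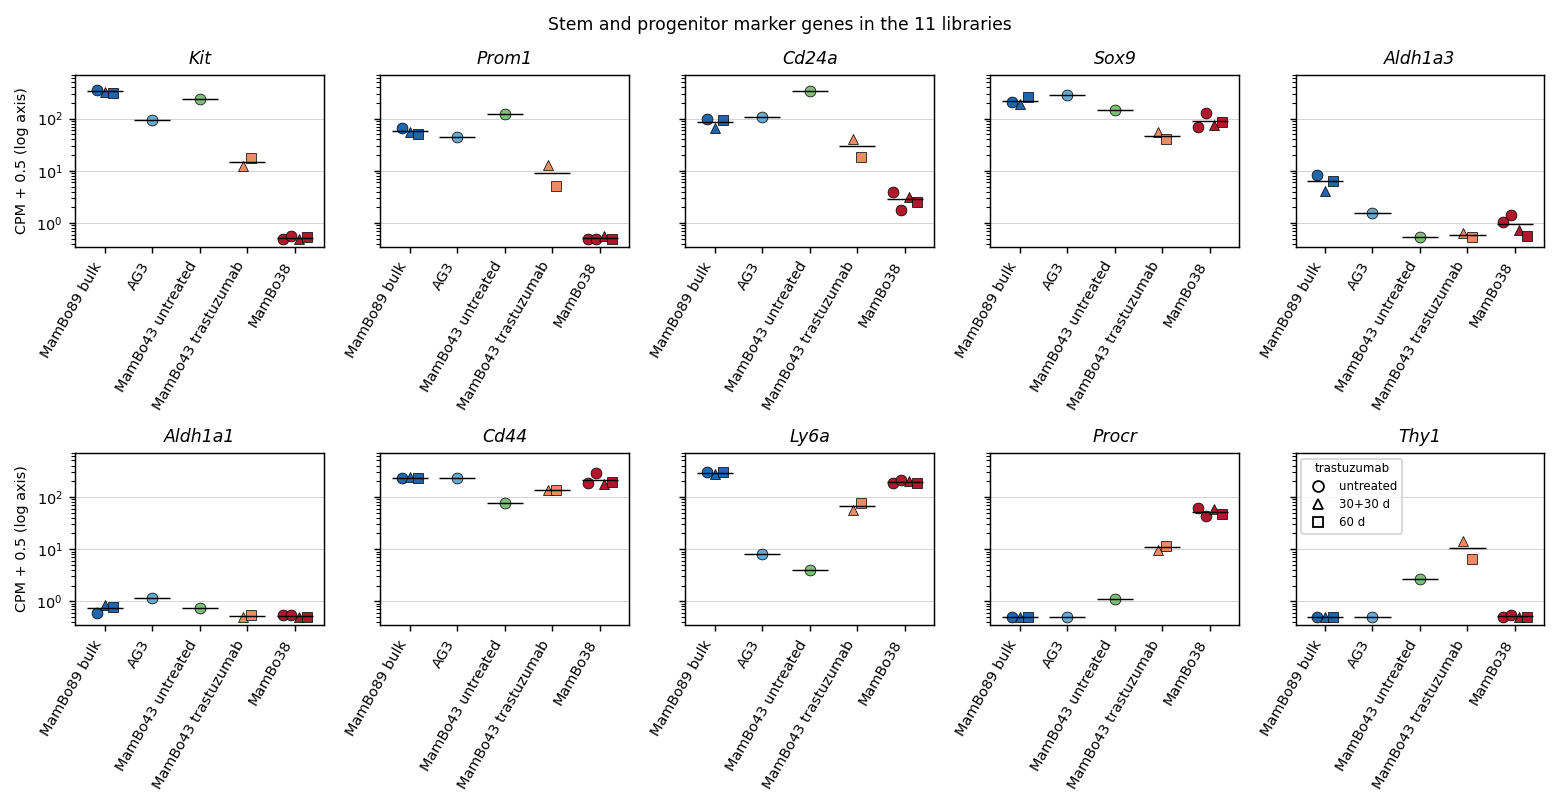
CPM + 0.5 of each marker gene (log axis) in the 11 libraries, with 1 point per library (shape gives the trastuzumab schedule) and a bar at the group mean. Kit runs from 352 CPM in MamBo89 to 0 CPM in MamBo38, Procr from 0 CPM in MamBo89 to 60.6 CPM in MamBo38, and Ly6a is low in AG3 and in untreated MamBo43.

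The promoter-side sequences of Kit and Procr are given because these genes had the largest fall and the largest rise of the set between HER2-positive and HER2-negative libraries. Both come from RefSeq promoter windows on GRCm38.p6 (250 bases before to 50 bases after a transcript start), which held entries for 5 of the 10 markers: Cd44, Kit, Prom1, Procr and Aldh1a1. Each is read 5′ to 3′ on the plus strand and stops where the GENCODE M21 gene begins. The Kit stretch is chr5:75574737-75574915 and that of Procr is chr2:155750967-155751116. Capitals mark TGACTCA, the AP-1 consensus, searched on both strands (reverse complement TGAGTCA).
Kit: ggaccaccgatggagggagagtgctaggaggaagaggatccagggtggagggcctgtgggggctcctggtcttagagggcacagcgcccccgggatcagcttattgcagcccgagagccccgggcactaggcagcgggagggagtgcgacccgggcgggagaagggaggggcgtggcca
Procr: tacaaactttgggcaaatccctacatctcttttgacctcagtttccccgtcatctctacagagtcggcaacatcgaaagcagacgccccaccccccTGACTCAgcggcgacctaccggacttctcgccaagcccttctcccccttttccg

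The AP-1 letters stood 154 bases before the RefSeq start of Procr (chr2, base 155751217, inside the GENCODE gene), and also in a window of Prom1 (88 bases before its RefSeq start) and in a window of Aldh1a1 (57 bases before). They were in neither Kit window and not in the Cd44 window. Of 32851 such mouse windows, 5.2% held them. The E-box CAGGTG (or CACCTG), which Snail-type factors can bind, was in windows of Prom1 and Aldh1a1 and in 20.2% of all windows. The motifs were chosen after these sequences had been seen. Genes on both sides of the HER2 comparison carried the AP-1 letters (Procr and Prom1), so the matches describe these windows and no more.

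Kit, the stem cell factor receptor and a luminal progenitor marker, lies at chr5:75574916-75656722 on GRCm38. It was at 352, 329 and 313 CPM in the untreated, 30 + 30-day and 60-day MamBo89 libraries. In AG3 it was at 94.2 CPM and in untreated MamBo43 at 239 CPM. All 5 HER2-positive libraries thus lay far above treated MamBo43, which had 11.9 CPM after 30 + 30 days and 16.9 CPM after 60 days. MamBo38 had 2 Kit counts in all 4 libraries together.

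Prom1 encodes CD133, a pentaspan membrane protein of luminal cells (chr5:43993620-44102032, minus strand). It was at 67.04, 56.0 and 50.8 CPM in the 3 MamBo89 libraries, 43.5 CPM in AG3 and 124 CPM in untreated MamBo43. Treated MamBo43 had 12.7 and 4.53 CPM, in the order 30 + 30 days and 60 days, and MamBo38 had 1 count in all. As with Kit, every HER2-positive library lay above every HER2-negative one. An antisense gene, Gm16401, overlaps Prom1 exons, and the library kit keeps no strand, so their reads cannot be told apart. Of the 75-base windows of Prom1 transcripts, 3.65% also occur in transcripts of other genes.

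Cd24a encodes the mucin-like surface protein CD24, which is high on luminal cells (chr10:43578284-43584265). Untreated MamBo43 had the highest level of all libraries, 342 CPM. AG3 had 106 CPM and MamBo89 97.5, 66.8 and 92.3 CPM (untreated, 30 + 30 days, 60 days). Levels were 41.1 CPM after 30 + 30 days and 18.3 CPM after 60 days in MamBo43, and 1.28 to 3.41 CPM in MamBo38 (median of the 6 HER2-negative libraries 3.02 CPM). The groups did not overlap, and 1.1% of Cd24a windows are shared with the gene Gm6212.

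Sox9, a transcription factor of mammary progenitors (chr11:112782224-112787760), varied less. It was at 206, 191 and 258 CPM in MamBo89 and 282 CPM in AG3. Untreated MamBo43 had 144 CPM, treated MamBo43 54.2 and 39.6 CPM, and MamBo38 70.0 to 128 CPM. The lowest HER2-positive library stood just above the highest HER2-negative one, an untreated MamBo38 library.

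Procr encodes the endothelial protein C receptor, which marks a multipotent basal stem cell fraction of the mouse mammary gland (chr2:155751117-155755471). All 4 MamBo89 libraries, AG3 included, had 0 counts. Untreated MamBo43 had 15 counts (0.587 CPM), treated MamBo43 had 9.31 CPM after 30 + 30 days and 11.2 CPM after 60 days, and MamBo38 had 60.6 and 41.9 CPM untreated, 57.1 CPM after 30 + 30 days and 46.5 CPM after 60 days. The groups MamBo38, treated MamBo43, untreated MamBo43 and MamBo89 followed each other without overlap. The mean of MamBo38 was at least 978-fold that of MamBo89 bulk, taking 3 counts over the group as the floor, and 5.02-fold that of treated MamBo43.

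Ly6a encodes Sca-1, a GPI-anchored protein of progenitor and mesenchymal cells (chr15:74994877-74998031, minus strand). It was high in MamBo89 (302, 271 and 301 CPM) and in MamBo38 (182 to 214 CPM). AG3, from the same line as MamBo89, had 7.74 CPM, and untreated MamBo43 had 3.56 CPM. Treated MamBo43 reached 54.9 and 77.1 CPM. HER2-positive libraries thus ranged from 3.56 to 302 CPM, on both sides of the HER2-negative range of 54.9 to 214 CPM. A share of 6.33% of Ly6a windows also occurs in Ly6c1 and Ly6i, where counting could split reads.

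Cd44, the hyaluronan receptor (chr2:102811141-102901665, minus strand), had the narrowest range among the well-expressed markers. It was at 231, 243 and 231 CPM in MamBo89 and 230 CPM in AG3. MamBo38 had 175 to 289 CPM and overlapped AG3, treated MamBo43 had 133 CPM in both libraries, and untreated MamBo43 had 77.5 CPM. Per kilobase of merged exon, the mean Cd44 level in MamBo38 was 31.1 CPM, against 163 CPM per kilobase for Ly6a, 25.4 for Procr, 21.7 for Sox9 and 0.911 for Cd24a. In MamBo89 bulk, the corresponding levels were 34.6 CPM per kilobase for Cd44, 242 for Ly6a, 52.8 for Sox9, 37.2 for Kit, 33.1 for Cd24a and 8.08 for Prom1.

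Thy1 encodes CD90, a GPI-anchored protein of basal and mesenchymal cells (chr9:44043384-44048579). It was detected above the floor in MamBo43 only among these lines, with 2.15 CPM untreated, 14.0 CPM after 30 + 30 days and 6.10 CPM after 60 days. MamBo38, which derives from MamBo43, had 1 count in 4 libraries, and MamBo89 and AG3 had 0 counts. A count of 0 allows a level of up to 0.114 to 0.179 CPM, depending on the library.

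Aldh1a1 and Aldh1a3 encode retinaldehyde dehydrogenases, which contribute to the enzyme activity used to isolate stem-like cells (chr19:20492715-20643465 and chr7:66390890-66427517, minus strand). Aldh1a1 had at most 14 counts in any library, in AG3, and 3 counts over the 6 HER2-negative libraries. Aldh1a3 was at 7.69, 3.67 and 5.93 CPM in MamBo89, 1.07 CPM in AG3 and 0.0391 CPM in untreated MamBo43. HER2-negative libraries had 0.0384 to 0.946 CPM of Aldh1a3, so they overlapped untreated MamBo43, whereas every MamBo89 library lay above them.

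The study's central comparison asked which genes accompany loss of HER2. Procr was higher, and Kit, Prom1, Cd24a, Aldh1a3 and Sox9 were lower, in the 6 libraries without HER2 than in the 5 with it. Calls required an adjusted p (Benjamini-Hochberg) below 0.1 in edgeR's quasi-likelihood test together with a log2 fold change of 1 or more in size. By this rule, 6 of the 8 markers tested were called, against 32.8% of all 12364 genes tested. Thy1 and Aldh1a1 did not pass the filter on low counts. Of the 8, 1 was called higher (15.8% of all genes) and 5 lower (17% of all genes), and the libraries of both groups did not overlap in 5, as in 34.9% of all genes. The median log2 fold change of the 8 was -2.51, beside -0.04 over all genes tested, and these 8 passed a filter that admits a gene through the group where it is high.

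The mean of Kit was 265 ± 105 CPM (SD, n = 5) with HER2 and 4.82 ± 7.60 CPM (SD, n = 6) without it. Its log2 fold change was -5.78 (SE 1.52, adjusted p = 0.00801 by edgeR). Prom1 had a log2 fold change of -4.56 (SE 1.41, adjusted p = 0.0182) and Cd24a of -3.62 (SE 0.94, adjusted p = 0.00741). These luminal markers thus differed by more than the spread between libraries. Their size depended on the MamBo43 libraries: without the 30 + 30-day library, Prom1 had -6.14 and Cd24a -4.66, without the 60-day library Kit had -6.79, and without the untreated library Cd24a had -2.98, all still called. In untreated libraries only, Cd24a had -6.26 (adjusted p = 0.0122), and Kit and Prom1, with 1 and 0 counts in the HER2-negative libraries, stayed called (adjusted p = 0.00314 and 0.0049).

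For Procr, the mean was 37.8 ± 22.4 CPM (SD, n = 6) without HER2 and 0.117 ± 0.262 CPM (SD, n = 5) with it, and the log2 fold change was 8.08 (SE 1.16, adjusted p = 0.000189). The 15 counts of untreated MamBo43 were the only ones in the HER2-positive group, and without that library Procr was at least 946-fold higher in HER2-negative libraries (adjusted p = 0.000137), taking 3 counts over the group as the floor. Sox9 differed least among the called markers, at -1.52 (SE 0.28, adjusted p = 0.000959), and Aldh1a3 had -3.50 (SE 1.04, adjusted p = 0.0155), or -4.14 without the untreated MamBo38 library that has the more common code. Cd44 had a log2 fold change of -0.14 (SE 0.30, adjusted p = 0.723) and Ly6a of -0.22 (SE 0.92, adjusted p = 0.856), and neither was called. In untreated libraries only, Sox9 (-1.07, adjusted p = 0.112) and Aldh1a3 (-1.96, adjusted p = 0.464) were not called either. Adding library code to the model over all libraries left Procr, Kit, Prom1, Cd24a, Sox9 and Aldh1a3 called, with smaller values for Kit (-4.79), Prom1 (-3.57), Cd24a (-2.80) and Procr (7.21). In the 8 libraries of the more common code, Aldh1a3 was not called (-3.28, adjusted p = 0.132) and the other 5 were.

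All HER2-negative libraries came from tumor B and 4 of the 5 HER2-positive ones from tumor A, so the comparison was repeated with tumor of origin as a covariate. Cd44 then was higher in HER2-negative libraries (log2 fold change 1.25, SE 0.38, adjusted p = 0.0357), as was Ly6a (5.41, SE 1.86, adjusted p = 0.0547), and both were called. Procr stayed higher (5.99, SE 1.56, adjusted p = 0.0281). Kit (-5.62, adjusted p = 0.0426), Prom1 (-5.42, adjusted p = 0.0429) and Cd24a (-4.90, adjusted p = 0.0118) stayed lower. Sox9 (-0.94, adjusted p = 0.139) and Aldh1a3 (2.85, adjusted p = 0.307) were no longer called, and the sign of Aldh1a3 turned. This fit compares HER2 status within tumor B, where untreated MamBo43 is the HER2-positive library. With the counts of each line and HER2 status summed, 2 sums against 2, no marker was called by edgeR, 3 of 10 had an unadjusted p under 0.05, and 4 of 13399 genes were called. DESeq2 was not run on the sums.

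**Figure D2:**
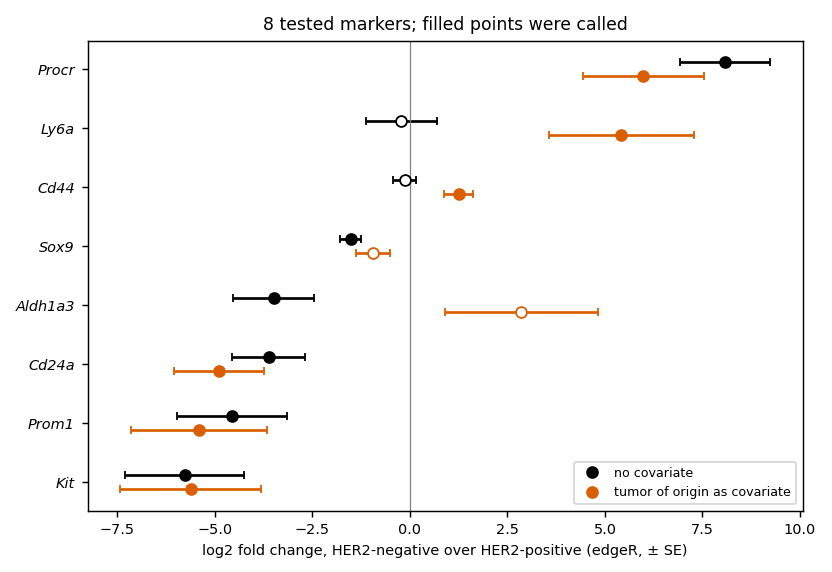
Log2 fold change (x axis) of the 8 tested markers between HER2-negative and HER2-positive libraries, with the SE as bars, without (black) and with (orange) tumor of origin as a covariate; filled points were called. Cd44 moves from -0.14 to 1.25 and Ly6a from -0.22 to 5.41, while Kit, Prom1 and Cd24a stay below 0 in both fits.

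The change within MamBo43 was then examined, from the untreated culture to the pair grown in trastuzumab. Ly6a, Procr and Thy1 rose, and Kit, Prom1, Cd24a and Sox9 fell. Aldh1a1 was also called lower, on 6 counts against 1. These were 8 of the 10 markers, against 33.2% of the 13782 genes tested, with 3 called higher (15.3% of all genes) and 5 lower (17.8% of all genes). The untreated library is 1, and the model over 5 groups and 11 libraries assumes that it varies like the others.

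Ly6a rose 18.5-fold in mean CPM (log2 fold change 4.21, SE 0.26, adjusted p = 6.81e-06). Procr rose 17.5-fold (4.12, SE 0.39, adjusted p = 0.000163) and Thy1 4.67-fold (2.22, SE 0.70, adjusted p = 0.0338). Without the 30 + 30-day library, Thy1 was not called (1.47, adjusted p = 0.141), and Prom1 had -4.80 and Cd24a -4.25 (values with it follow). Cd44 was 1.72-fold higher in both treated libraries, with an adjusted p of 0.0401, but its log2 fold change of 0.78 (SE 0.27) was under the minimum.

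Kit fell to 6.03% of its untreated level (log2 fold change -4.05, SE 0.23, adjusted p = 4.39e-06). Prom1 fell to 6.96% (-3.86, SE 0.45, adjusted p = 0.000165), Cd24a to 8.69% (-3.53, SE 0.45, adjusted p = 0.000278) and Sox9 to 32.5% (-1.62, SE 0.34, adjusted p = 0.00364). The Aldh1a1 call (adjusted p = 0.0861) had a ratio of 10.9 with a counting interval of 1.32 to 502, and it was lost without either treated library (adjusted p = 0.215 and 0.107) and by DESeq2 (adjusted p = 0.225). In bulk samples, fewer cells that express a gene and less RNA per cell cannot be told apart. The part of the epithelial, fibroblast and pericyte markers, whose sums moved in the same cultures, was not tested.

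The 30 + 30-day and the 60-day cultures of MamBo43 held like levels of Cd44, while Prom1, Cd24a and Thy1 were higher in the 30 + 30-day culture. Kit, Ly6a and Procr were lower there than after 60 days. With 1 library for each schedule, these differences have no replicate check.

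In MamBo89 bulk and MamBo38, levels under the same schedules lay between 68.5% and 125% of the untreated level for the markers above the floor, the aldehyde dehydrogenase genes apart. In MamBo89, Kit was at 93.6% and 89% of the untreated level (30 + 30 days, 60 days), Ly6a at 89.9% and 99.6%, Prom1 at 83.6% and 75.7% and Cd24a at 68.5% and 94.6%. In MamBo38, Ly6a was at 102% and 90.9%, Procr at 111.3% and 90.7% and Cd44 at 74.0% and 82.7% of the mean of both untreated libraries. Aldh1a3 was at 47.7% and 77.1% in MamBo89, and at 32.4% and 10.3% in MamBo38, where it had 2 to 17 counts in a library. The 2 untreated MamBo38 libraries, which carry different codes, themselves spanned 184 to 289 CPM for Cd44 and 70.0 to 128 CPM for Sox9.

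The difference between lines was tested directly, as the trastuzumab change in MamBo43 minus that in another line, in a model of 7 groups. Against MamBo89 bulk, 6 of 10 markers differed (22.2% of all 13782 genes), 1 upward (10.6% of genes) and 5 downward (11.6% of genes): Ly6a by 4.28 (log2, SE 0.35, adjusted p = 0.000868), Kit by -3.92 (SE 0.38, adjusted p = 0.00171), Prom1 by -3.53 (SE 0.76, adjusted p = 0.0251), Cd24a by -3.24 (SE 0.75, adjusted p = 0.0265), Sox9 by -1.75 (SE 0.52, adjusted p = 0.054) and Aldh1a1 by -4.84 (SE 1.71, adjusted p = 0.0965). The Sox9 call was lost without the 60-day library of MamBo43 (adjusted p = 0.109) or of MamBo89 (adjusted p = 0.135), and the Aldh1a1 call without any of the 4 treated libraries. Procr and Thy1 have no such value, since MamBo89 had 0 counts of both. Without the 30 + 30-day MamBo43 library, the differences were -4.48 for Prom1 and -3.97 for Cd24a.

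Against MamBo38, 5 markers differed (25.2% of all 13782 genes), 3 upward (13.9%) and 2 downward (11.3%). They were Ly6a by 4.27 (SE 0.33, adjusted p = 0.000318), Procr by 4.11 (SE 0.48, adjusted p = 0.00227), Cd24a by -3.49 (SE 0.76, adjusted p = 0.0154), Sox9 by -1.32 (SE 0.47, adjusted p = 0.077) and Cd44 by 1.138 (SE 0.33, adjusted p = 0.0411). The Cd44 call was lost when any of 3 MamBo38 libraries was left out, either because its difference of 0.78 was under the minimum or because its adjusted p was 0.129 or 0.102. The Sox9 call was lost without any of 4 libraries, and Cd24a had -4.38 without 1 untreated MamBo38 library and -4.20 without the 30 + 30-day MamBo43 library. Both tests share the MamBo43 libraries. Kit, Prom1, Thy1 and Aldh1a1 have no such value against MamBo38, which had 1 or 2 counts of each over all its libraries.

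**Figure D3:**
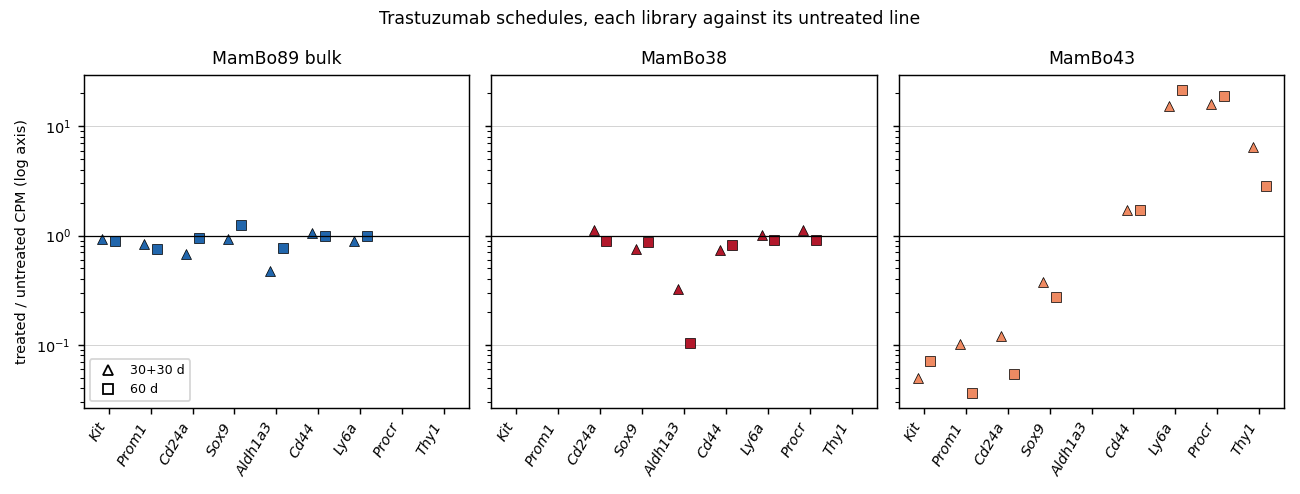
CPM of each trastuzumab-treated library divided by that of the untreated libraries of its line (log axis), for 9 markers in 3 lines; markers at or under the floor are left out. MamBo43 points run from 0.0365 (Prom1, 60 days) to 21.7 (Ly6a, 60 days), and MamBo89 points from 0.477 to 1.25.

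Treated MamBo43 and MamBo38 were both HER2-negative and from tumor B, yet 6 of 10 markers differed between them, against 22.7% of the 13782 genes tested. In MamBo38, Procr (log2 fold change 2.32, SE 0.22, adjusted p = 0.000154) and Ly6a (1.57, SE 0.15, adjusted p = 6.21e-05) were higher, 2 called higher against 11.5% of all genes. Kit, Prom1, Thy1 and Cd24a were lower, 4 against 11.2% of all genes. Cd24a had a log2 fold change of -3.65 (SE 0.36, adjusted p = 6.95e-05), or -2.96 without the 30 + 30-day library. For the others, MamBo38 had 1 or 2 counts, and treated MamBo43 was higher by a ratio of 603 for Kit (counting interval 166 to 4986), 666 for Prom1 (119 to 26380) and 784 for Thy1 (140 to 31040). Cd44 (0.67, adjusted p = 0.0177) and Sox9 (0.94, adjusted p = 0.0149) passed the adjusted p but not the fold minimum, and Sox9 was called without any of 3 libraries (1.02 to 1.17). For Kit, Prom1, Cd24a, Ly6a, Procr and Cd44, treated MamBo43 thus lay between untreated MamBo43 and MamBo38, whereas Thy1 was highest and Sox9 lowest in treated MamBo43.

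The ratio of Cd44 to Cd24a CPM summarises the pair used in the CD44-high, CD24-low profile, at the level of RNA. It was 0.227 in untreated MamBo43, 3.23 after 30 + 30 days and 7.28 after 60 days. MamBo89 had ratios of 2.37, 3.64 and 2.502, AG3 had 2.18, and MamBo38 had 54.0 to 226. The 30 + 30-day MamBo43 ratio thus lay within the range of MamBo89, and the 60-day ratio above it and below MamBo38. The RNA ratio does not give a share of cells. In the study's cytometry, CD44-high cells with low or no CD24 were few in MamBo89, more in MamBo43 kept in trastuzumab and most in MamBo38. Cd24a contributed most of the range, from 1.28 to 342 CPM, against 77.5 to 289 CPM for Cd44.

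**Figure D4:**
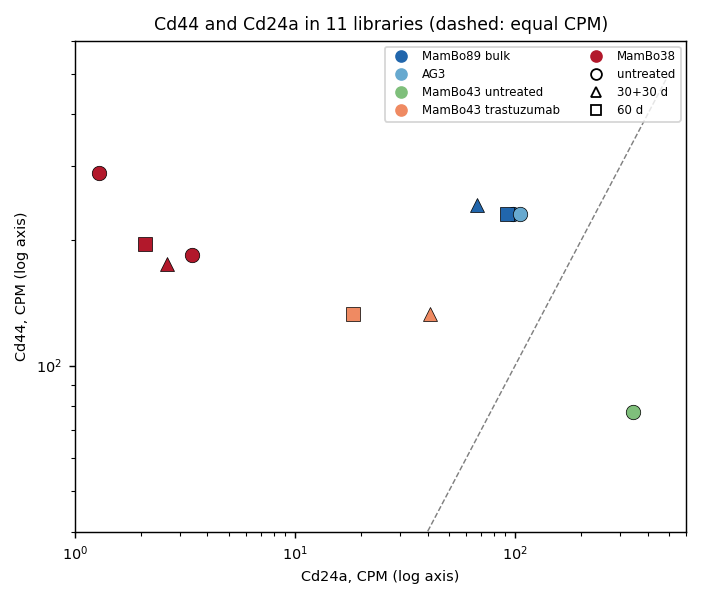
Cd44 against Cd24a in the 11 libraries (CPM, log axes), with groups by colour, trastuzumab schedule by shape and equal levels dashed. Untreated MamBo43 lies below the line, with 342 CPM of Cd24a and 77.5 CPM of Cd44, and MamBo38 lies far to the left of all other libraries.

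The HER2-stable and HER2-labile lines were compared before any treatment, with 1 MamBo43 library against the parental MamBo89 library and AG3. In MamBo43, Cd24a (log2 fold change 1.77, SE 0.44, adjusted p = 0.0234) was called higher, as was Thy1 (adjusted p = 0.0441), which had 55 counts against 0. Cd44 (-1.55, SE 0.49, adjusted p = 0.086), Ly6a (-5.41, SE 1.39, adjusted p = 0.0283) and Aldh1a3 (adjusted p = 0.0685, 1 count in MamBo43) were called lower. These 5 of 10 stand beside 7.4% of the 12867 genes tested (4.87% higher, 2.53% lower). By DESeq2, Ly6a (adjusted p = 0.365) and Thy1 (adjusted p = 0.1) were not called, and with RLE size factors Cd44 (0.108) and Aldh1a3 (0.102) had an adjusted p over the threshold. The spread in this fit rests on the parental library and AG3 alone, which differ for several markers. The MamBo89 bulk libraries, compared next, include both trastuzumab schedules. Against the 3 MamBo89 bulk libraries in the model of 5 groups, 7 of 10 markers were called, beside 24.5% of genes (13.3% higher, 11.2% lower), Prom1 (1.10, adjusted p = 0.0578) and Procr (adjusted p = 0.00123, 15 counts against 0) being added as higher.

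AG3 differed from MamBo89 bulk in 3 of 10 markers, all lower, against 17.2% of the 13782 genes tested (8.42% higher, 8.77% lower). Ly6a was at 2.66% of the bulk mean (log2 fold change -5.24, SE 0.27, adjusted p = 4.7e-05) and Kit at 28.4% (-1.82, SE 0.24, adjusted p = 0.00137). Aldh1a3 was at 18.6% (-2.43, SE 0.95, adjusted p = 0.0857), and its call was lost without the untreated (adjusted p = 0.179) or the 60-day (adjusted p = 0.137) bulk library. Cd44 was at 98.1% of the bulk mean and Sox9 was 1.29-fold higher (adjusted p = 0.427). The Ly6a level of HER2-positive MamBo89 cells thus ranged from 7.74 to 302 CPM between AG3 and the bulk libraries. AG3 is 1 library, and the model over 5 groups assumes that it varies like the others. The bulk group includes both trastuzumab schedules. Procr and Thy1 had 0 counts in AG3 and in bulk, so they could not differ.

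Related genes were read beside the markers in the comparison by HER2 status, without tumor of origin as a covariate. Of 20 tested luminal progenitor and luminal genes, 16 were lower and 0 higher in HER2-negative libraries, against 17% and 15.8% of all genes tested. Their median log2 fold change was -4.39, beside -0.04 over all genes. Elf5, a transcription factor of alveolar luminal progenitors, had -8.80 (SE 0.85, adjusted p = 1.61e-05). The milk protein genes Ltf (-7.75) and Csn3 (-7.33) and the prolactin receptor gene Prlr (-7.62) were lower as well. Csn3 was at 1120 CPM in MamBo89, 69.8 CPM in untreated MamBo43 and 4.54 CPM in treated MamBo43. Krt8 (-3.02, adjusted p = 0.185) and Krt18 (-2.28, adjusted p = 0.284) were not called.

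Basal and stem-enriched genes split, with 4 higher and 4 lower of 15 tested and a median of 0.15. Of this list 53.3% were called, against 32.8% of all genes (15.8% higher, 17% lower). The smooth muscle actin gene Acta2 (8.37) and Snai2 (3.47), a transcription factor of basal cells, were higher, and Lgr6 (-5.04) and the oxytocin receptor gene Oxtr (-4.715) were lower. Acta2 had a mean of 268 CPM in treated MamBo43, where the highest library had 467 CPM, and of 12.9 CPM in MamBo38. Lgr6 was at 641 CPM in untreated MamBo43, 56.2 CPM in AG3 and 6.94 CPM in MamBo89. In the HER2-negative groups, Lgr6 was at 12.9 CPM in treated MamBo43, above MamBo89, and at 0.115 CPM in MamBo38. The basal keratin gene Krt14 (0.83, adjusted p = 0.727) and Trp63 (0.32, adjusted p = 0.853) were not called.

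Ligands and other partners of the markers gave 7 higher and 5 lower of 22 tested (median 0.25). This was 54.5% called, beside 32.8% of all genes (15.8% higher, 17% lower). Thbd, whose product thrombomodulin acts with the Procr product in protein C activation, had the largest change at 9.72 (SE 0.89, adjusted p = 1.21e-05), with 97.2 CPM in MamBo38, 55.1 CPM in treated MamBo43, 0.391 CPM in untreated MamBo43 and 0 CPM in MamBo89 and AG3. Prom2, the paralog of Prom1, was lower (-4.89), as were Sox8 (-5.37) and the protease-activated receptor gene F2rl1 (-3.98). Kitl, the Kit ligand, was higher by HER2 status (1.16, SE 0.48, adjusted p = 0.0614) but lower in treated than in untreated MamBo43 (-1.29, SE 0.33, adjusted p = 0.0107). Kitl was at 357 CPM in MamBo38, where Kit was at the floor.

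Among aldehyde dehydrogenase and retinoic acid genes, 6 were higher and 3 lower of 24 tested (median 0.03). The 37.5% called were near the 32.8% called over all genes (15.8% higher, 17% lower). The retinoic acid binding protein genes Crabp1 (10.72) and Crabp2 (6.19) and the dehydrogenase genes Aldh3a1 (6.23) and Aldh1l2 (3.70) were higher. Crabp1 and Aldh3a1 stood out in MamBo38 (63.7 and 80.2 CPM) and not in treated MamBo43 (0.545 and 1.36 CPM), while Crabp2 was at 154 and 172 CPM in these groups. In the Ly6 family, 0 of 6 tested genes were higher (15.8% of all genes) and 3 lower (17% of all genes). The median was -1.37, and the 3 were Ly6d (-11.42), Lypd3 (-4.86) and Ly6e (-1.34). Ly6d was at 1085 CPM in MamBo89 and 357 CPM in AG3, but at 6.46 CPM in untreated and 0.763 CPM in treated MamBo43. Ly6c1 and Ly6i, which share sequence with Ly6a, were not called.

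**Figure D5:**
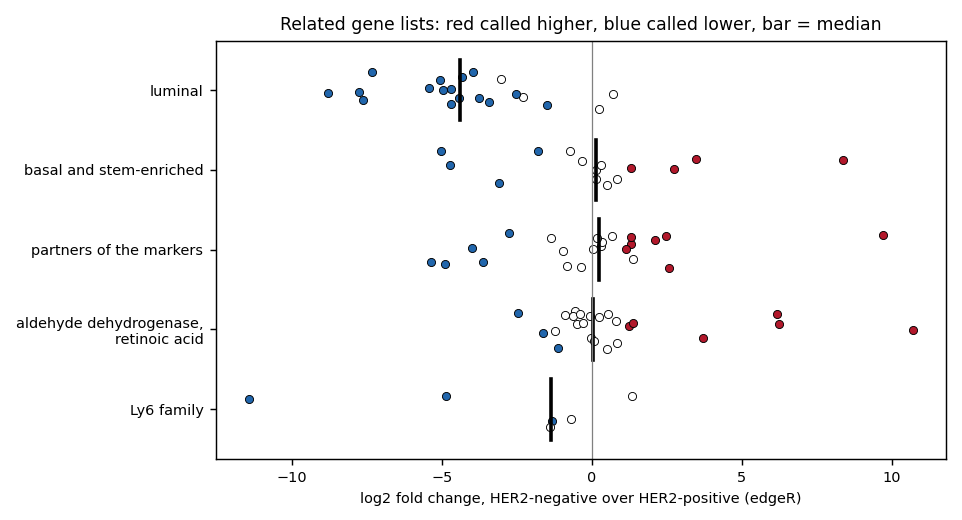
Log2 fold change between HER2-negative and HER2-positive libraries (x axis, edgeR) of the tested genes of 5 related lists, 1 point per gene, with the median as a bar. Of the luminal genes, 16 of 20 are called lower (17% of all genes). The basal, partner and aldehyde dehydrogenase lists scatter on both sides, and the 3 called Ly6 family genes are lower.

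For the 7 markers whose log2(CPM + 0.5) ranged over at least 3, the tested genes with the nearest centred profile over the 11 libraries were listed, by Euclidean distance. Prom1 was nearest to Slc44a3 (distance 0.98) and Wnk2 (1.02), and Procr to Tmem74 (0.90) and Vcam1 (0.998), the latter an adhesion molecule gene. Vcam1 was at 62.5 CPM in MamBo38, 17.3 CPM in treated MamBo43 and 0.548 CPM in untreated MamBo43. Cd24a was nearest to Tmem125 (1.38) and Ebf3 (1.48), Kit to Cited4 (1.78) and Lbp (2.21), and Aldh1a3 to Dbi (1.39) and D630045J12Rik (1.48). Ly6a was nearest to Hspb8 (1.93) and Sema5a (2.93), and Hspb8 was likewise low in untreated MamBo43 (2.47 CPM) and AG3 (6.82 CPM) and high in MamBo89 (199 CPM). Thy1 was nearest to Spry1 (1.95) and Foxs1 (2.49). The profiles are taken from the same libraries, and the distances are a description.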

How the data were processed

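The deposited table gives, for 11 libraries, expected counts per gene that the authors made with STAR 2.5 and RSEM 1.3.0 (75-base single-end reads, unstranded TruSeq kit, build mm10 per the labels); the annotation is not given in the sources used here. The values were whole and not normalized, and no column was left unmapped (0). Lines and treatments came from the labels; HER2 status, and the reading of AG3 as a clone, followed the study's methods. The markers and related lists were chosen with earlier results of these data known.

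In R 4.3.3, genes were kept by filterByExpr (minimum count 10, minimum total 15), scaled by TMM and tested with edgeR 4.0.16 (glmQLFit, glmQLFTest), with Benjamini-Hochberg adjustment over all genes tested. SEs were taken as the size of the log2 fold change over the root of F. The HER2 comparison used 2 groups; other comparisons used a model over all 11 libraries with 5 groups, or 7 for differences between lines, except untreated MamBo43 against untreated MamBo89 (3 libraries). A ratio against 1 to 3 counts has an exact conditional 95% interval, and a fold against 0 counts is a bound computed from 3 counts over the group; both cover counting error only, since reads carry no molecular identifiers. The scripts were tested on simulated counts. Alternatives included DESeq2 1.42.0, RLE size factors, other filters, covariates (tumor, library code, schedule), subsets and leaving out each library. All 10 markers are named; from each list, the up to 4 called genes with the largest change, and other list genes named were chosen after their values were seen. Nearest profiles use a pseudocount of 0.5. Coordinates are GENCODE M21 (GRCm38); shared windows are 75-base stretches found in transcripts of other genes.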

Additional observations from a re-analysis of the deposited data

Results flagged for a closer look

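Of 25 sets made of a marker and a group of 4 to 6 libraries, 5 held a library far from the rest, where chance gives 1.25. In the HER2-positive group, untreated MamBo43 was the library apart for Cd44 (77.5 CPM, the others from 230 CPM), Cd24a (342 CPM, the others up to 106 CPM), Procr (0.587 CPM) and Thy1 (2.15 CPM, the others 0 for both). In the HER2-negative group, the 30 + 30-day MamBo43 library was apart for Prom1 (12.7 CPM, next 4.53 CPM). Untreated MamBo43 is the tumor B library in a group of tumor A libraries, so line and tumor cannot be told apart there.

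The change under trastuzumab differed between MamBo43 and MamBo89 bulk for Cd24a (-3.24), Ly6a (4.28), Kit (-3.92), Prom1 (-3.53), Sox9 (-1.75) and Aldh1a1 (-4.84, few counts), as log2 differences by edgeR. It differed between MamBo43 and MamBo38 for Cd44 (1.138), Cd24a (-3.49), Ly6a (4.27), Procr (4.11) and Sox9 (-1.32). The untreated MamBo43 level enters all of these values as 1 library.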

How the results depend on the processing

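Of 542 values of single markers under an alternative, 486 kept their direction and their side of the thresholds, 37 lost and 7 gained a call, and 12 turned in sign. Counts of called genes by HER2 status (4052) were 2597 with at least 10 counts in every library and 4 on summed counts, with 2 and 0 markers called (6 otherwise). Requiring 10 counts in every library, which removes genes absent from a line, left 340 genes and 1 marker for untreated MamBo43 against MamBo89 (952 and 5 otherwise), 2696 and 3 for MamBo43 under trastuzumab (4570 and 8), 1418 and 2 for MamBo38 against it (3130 and 6), 1521 and 1 for AG3 (2369 and 3), and 3 markers for the change in MamBo43 against MamBo89 (6). For untreated MamBo43, DESeq2 and RLE size factors left 3 markers each, and bulk MamBo89 gave 3373 genes.

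Signs turned, by HER2 status, for Ly6a with 1 library left out (-0.538 to 0.054; above 0 without the untreated or the 60-day MamBo89 library), with tumor as covariate (Cd44 1.25, Ly6a 5.41, Aldh1a3 2.85), in untreated libraries only (Cd44 0.42, Ly6a 0.96; 4 markers called) and on sums (Cd44 0.17, Ly6a 0.29). Others were Kit (-0.47) and Aldh1a1 (0.017) in untreated MamBo43 against bulk MamBo89, and Aldh1a3 in treated MamBo43 with 1 library left out (-0.052 to 1.76). Except where the construction shows it, the cause was not tested.

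With 1 library left out, counts ranged from 3795 to 4607 genes by HER2 status (6 markers throughout) and from 2299 to 3832 genes (3 to 6 markers) for MamBo43 against MamBo38. Trastuzumab schedule as a block, an alternative chosen after seeing the data, left 6 markers and 4114 genes called by HER2 status (Kit -7.57, Prom1 -6.22, Cd24a -4.30). Shared controls, 1 untreated MamBo43 library and few counts of Aldh1a1, Aldh1a3 and Thy1 limit these results. Libraries could not be paired by replicate, because the labels give them no replicate numbers. Schedule and library code were used as terms instead.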
